A study of Homo sapiens with 4 samples.

Results

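The genes described here are 10 genes that govern the G1 phase of the cell cycle, taken by symbol from the table of raw counts that compares TPC1 cells after 24 h and 6 h of BLU6864. They are the D-type cyclins CCND1 and CCND3, the E-type cyclins CCNE1 and CCNE2, the kinases CDK4 and CDK6, the CIP/KIP inhibitors CDKN1A and CDKN1B, and the INK4 inhibitors CDKN2B and CDKN2C. All 10 were found among the 20372 genes of the table, and all 10 had enough counts to be among the 12876 genes tested. TPC1 is a long-established line of human papillary thyroid carcinoma with the CCDC6-RET fusion protein, and BLU6864 is a RET inhibitor. The 4 libraries were made from TPC1 cells in BLU6864 for 6 h (2 libraries) or for 24 h (2 libraries, which the titles mark as a re-analysis). The dose is 100 µM in the sample labels and 100 nM in the methods. Vehicle-treated cells were not analysed here, so the level before treatment is not known, and time in culture and time in the inhibitor cannot be told apart. The re-analysis mark is on the 24 h libraries alone, so whatever it stands for cannot be told apart from time either. All libraries come from 1 cell line, and nothing says whether the libraries of a time point came from separate cultures. P values thus measure only the spread between these libraries, which may be technical. The edgeR test estimates that spread in part across all genes tested, not from the libraries of each gene alone.

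In G1, D-type cyclins bind CDK4 or CDK6, and these complexes begin the phosphorylation of the retinoblastoma protein. E-type cyclins with CDK2 continue it, which frees E2F factors to switch on the genes of DNA replication. INK4 proteins bind CDK4 and CDK6 and keep D-type cyclins off them. CIP/KIP proteins bind whole cyclin and CDK complexes, block those with CDK2, and also help D-type complexes to assemble. In many cells CCND1 is transcribed in response to growth factor signaling through ERK, the pathway that RET drives in thyroid cancer.

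Total counts were between 23917056 and 27457040 per library. PAX8, a transcription factor of the thyroid lineage, had between 19124 and 22978 counts, and KRT8, an epithelial keratin, between 1720 and 1811, whereas NKX2-1 and TSHR, which mark thyroid cells, had 0 counts in all 4 libraries. EPCAM and CDH1, epithelial surface proteins, had at most 11 and 8 counts. KRT7 and FOXE1 each rose by 0.84 on the log2 scale, while KRT19 and TG, the thyroglobulin gene, fell by 1.59 and 1.09. Of 6 white blood cell markers, 5 had at most 3 counts in every library, and their summed normalized counts lay between 1.95 and 6.97. The 6 fibroblast markers summed to between 571 and 591 normalized counts at 6 h and between 185 and 230 at 24 h. Most of this was COL1A1 and PDGFRB, which fell by 1.57 and 1.48 on the log2 scale, with COL1A2, COL3A1, and DCN at no more than 1 count. The 3 endothelial markers summed to between 507 and 542 at 6 h and between 26.3 and 47.8 at 24 h, most of it KDR, which fell by 3.97 on the log2 scale, with CDH5 at no more than 1 count. Whether any cells other than TPC1 were present was not tested. In such bulk RNA, fewer cells of a cycle phase and less RNA per cell cannot be told apart.

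The 10 genes moved in both directions between 6 h and 24 h. CCND1 and CDK4 rose by 1.66-fold and 1.61-fold, CDKN2B, CDKN2C, and CDKN1A fell to between 0.510 and 0.694 of their 6 h level, and CCNE2 fell most, to 0.186. CCND3, CCNE1, CDK6, and CDKN1B did not pass the cutoffs, an absolute log2 fold change above 0.5 and an unadjusted P below 0.01 in edgeR's quasi-likelihood test. The methods apply cutoffs of this size with DESeq2 and to lower genes only, and here they were extended to both directions. Thus 2 of the 10 genes were higher at 24 h, beside 17.4% of all genes tested, and 4 were lower, beside 17.7%. An adjusted P under 0.05 was reached by 8 of the 10, beside 65.6% of all genes, and the libraries of the 2 times did not overlap in 8 of the 10, beside 81.8%. The share without overlap is thus no larger than that of all genes. The median log2 fold change was -0.21 for the 10 genes and 0.0029 for all genes tested.

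**Figure D1:**
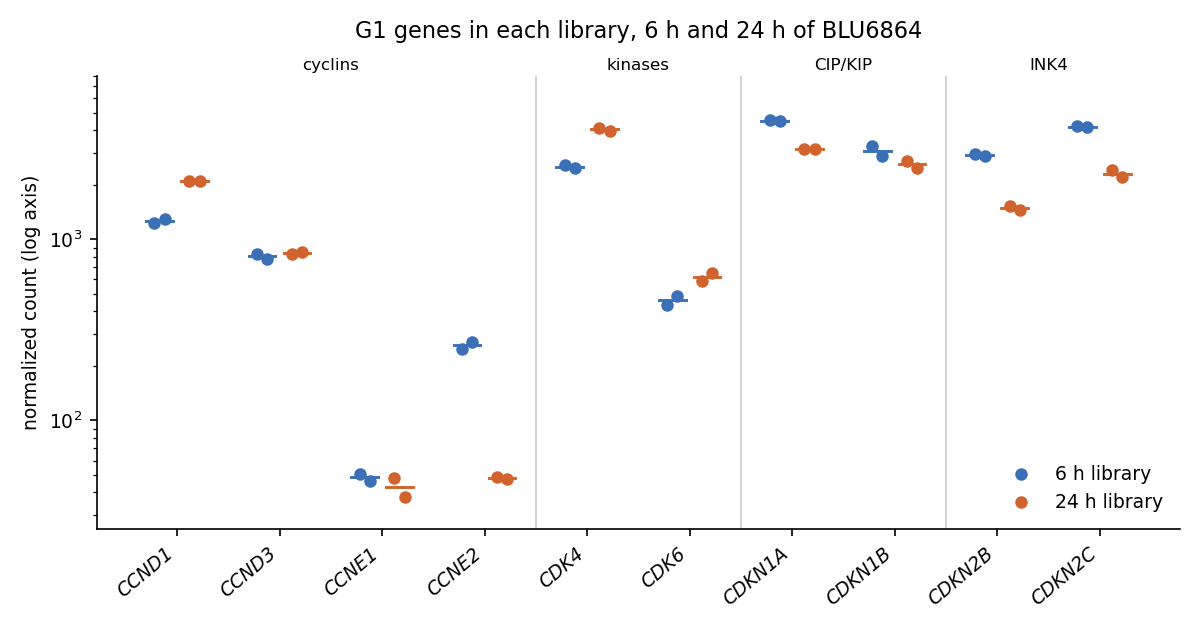
Normalized count of each of the 10 genes (log axis) in the 2 libraries at 6 h (blue) and the 2 at 24 h (orange), with a bar at the mean of each time, grouped by role. The orange points lie above the blue ones for CCND1, CDK4, and CDK6, below them for CCNE2 and all 4 inhibitors, and among them for CCND3 and CCNE1.

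CCND1 (ENSG00000110092), which encodes cyclin D1, lies on chromosome 11 of hg19 from 69455855 to 69469242. Its normalized counts, which are raw counts scaled to the same effective depth, were 1225 and 1292 at 6 h, and after 24 h they were 2098 and 2089. The times did not overlap. The mean rose from 1259 ± 47.4 (SD, n = 2) to 2094 ± 6.26, or by 0.73 on the log2 scale (standard error (SE) 0.0709, adjusted P = 9.01e-10 by edgeR). Among all genes tested, 24.1% had a larger absolute change. In the GENCODE annotation, 10.4% of the exon bases of CCND1 are shared with LTO1 on the opposite strand, named ORAOV1 in the table, which also rose, with a log2 fold change of 0.58. LTO1 had between 205 and 334 counts, against between 1135 and 2147 for CCND1. The methods name a stranded library kit and the labels a TruSeq RNA protocol without strand. Whether the counting used strand is not given in the sources used here, so the reads of such pairs cannot be told apart.

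CCND3 (ENSG00000112576), which encodes cyclin D3, lies on chromosome 6 from 41902671 to 42018095. It had 834 and 782 normalized counts at 6 h and 834 and 850 at 24 h, so the libraries of the times overlapped. The change was 0.06 on the log2 scale with a 95% interval from -0.11 to 0.23 (adjusted P = 0.532 by edgeR). The log2 fold change of CCND1 exceeded that of CCND3 by 0.67, with a 95% interval from 0.46 to 0.88 from both standard errors. The ratio of CCND1 to CCND3 inside a library does not depend on how libraries are scaled. Per kilobase of transcript it was 0.702 and 0.790 at 6 h and 1.20 and 1.18 at 24 h, an increase by a factor of 1.59. CCND2, the third D-type cyclin, had 3 and 4 counts at 6 h and 0 and 1 at 24 h, too few to test.

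CCNE1 (ENSG00000105173), on chromosome 19 from 30302805 to 30315215, and CCNE2 encode the E-type cyclins. CCNE1 had 50.7 and 46.1 normalized counts at 6 h and 47.8 and 38.0 at 24 h, with overlap between the times. The change was -0.17 on the log2 scale, and at this depth the 95% interval ran from -0.66 to 0.32 (adjusted P = 0.538 by edgeR), so changes beyond the cutoff of 0.5 downward lie within it. Counting error alone is near 15.2% of a CCNE1 count at 24 h, the highest value among the 10 genes.

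CCNE2 (ENSG00000175305), on chromosome 8 from 95891998 to 95908906, had 247 and 272 normalized counts at 6 h and 48.8 and 47.7 at 24 h. The 24 h libraries lay far below the 6 h libraries, and 3.65% of all genes tested changed more. The mean fell from 260 ± 17.9 (SD, n = 2) to 48.3 ± 0.802, a log2 fold change of -2.43 (SE 0.159, adjusted P = 3.54e-13 by edgeR). The log2 fold change of CCNE1 lay above that of CCNE2 by 2.26, with a 95% interval from 1.70 to 2.82. Of the summed level per kilobase of both E-type cyclins, CCNE2 made up 78.1% and 81.2% at 6 h and 42.7% and 47.9% at 24 h. With the length of all annotated exons in place of the transcript these shares were 73.2% and 76.8% at 6 h and 36.4% and 41.3% at 24 h. INTS8, a gene of the Integrator complex on the opposite strand, shares 37.1% of the CCNE2 exon bases and had between 2644 and 4212 counts, with a log2 fold change of -0.65. CCNE2 itself had 49 and 49 raw counts at 24 h, and the part of INTS8 reads in them was not tested.

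CDK4 and CDK6 encode the kinases that D-type cyclins activate. CDK4 (ENSG00000135446), on chromosome 12 from 58141510 to 58149796, had 2577 and 2459.9 normalized counts at 6 h and 4127 and 3958 at 24 h, without overlap. The mean rose from 2518 ± 82.7 (SD, n = 2) to 4042 ± 119, a log2 fold change of 0.68 (SE 0.0710, adjusted P = 3.57e-09 by edgeR). TSPAN31, which encodes a tetraspanin on the opposite strand, shares 44.3% of the annotated CDK4 exon bases. TSPAN31 did not pass the cutoffs, and its log2 fold change of -0.17 was opposite in sign. It had between 1231 and 1564 counts. CDK6 (ENSG00000105810), on chromosome 7 from 92234235 to 92465908, had 433 and 488 normalized counts at 6 h and 586 and 652 at 24 h. The times did not overlap, but the libraries of 1 time differed from each other by 10.7% at 24 h and 12.0% at 6 h. The difference was 0.42 on the log2 scale (SE 0.0947, adjusted P = 0.000332 by edgeR), under the cutoff. Without 24 h replicate 1 or 6 h replicate 2 it was 0.50 and 0.52, just past it. The change of CDK4 exceeded that of CDK6 by 0.26, with a 95% interval from 0.03 to 0.49. The ratio of CDK4 to CDK6 per kilobase was 37.2 and 31.5 at 6 h and 44.1 and 38.0 at 24 h, so the times lay next to each other without overlap.

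**Figure D2:**
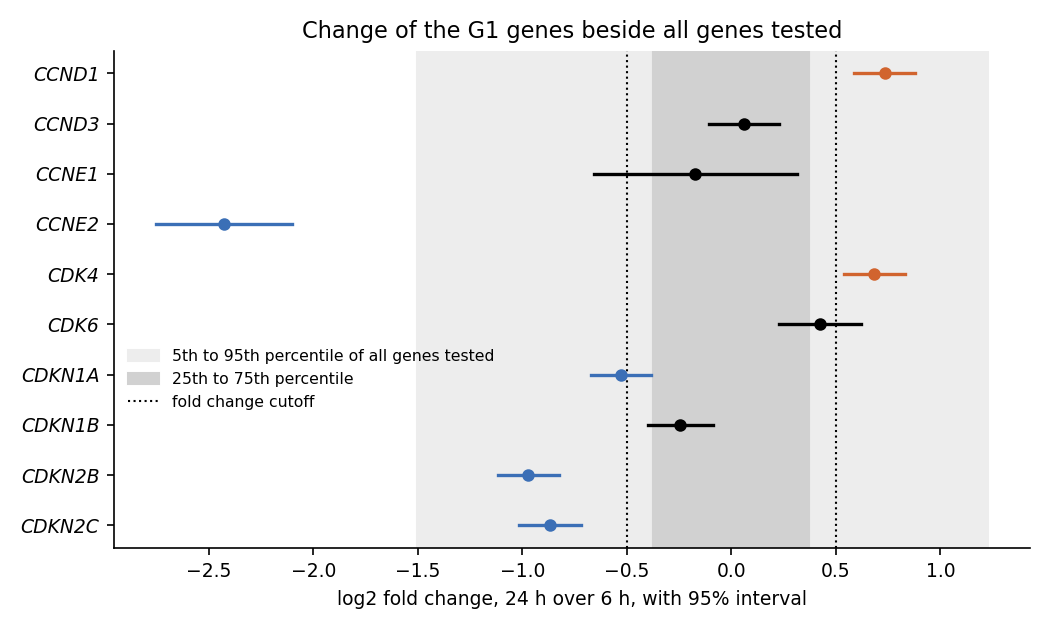
Log2 fold change at 24 h over 6 h of the 10 genes, with 95% intervals as lines, orange where a gene passed upward, blue where it passed downward, and black where it did not pass. The light and dark bands hold the middle of all genes tested (5th to 95th and 25th to 75th percentile, -1.50 to 1.23 and -0.37 to 0.37), and CCNE2 at -2.43 alone lies outside the light band.

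Promoter sequences were 300 bases long, from 250 before to 50 after a RefSeq start in the GRCh38.p14 table. They were matched for 8 of the 10 genes, with 13 starts. No promoter of CCND1 or CCNE2 was searched, which does not show that the table holds none. The 13 promoters were searched on both strands for the E-box CACGTG, which MYC and related factors bind. Of all 35116 promoters of this length in the table, 7.26% hold an E-box and 0.094% hold at least 3. CDK4 is 1 of these, with E-boxes at bases 35 to 40, 55 to 60, and 150 to 155 of the window, counted from its 5′ end. An E-box was also found in 1 of 2 promoters of CDK6 and in 2 of 3 of CDKN2C, which fell. MYC had 431 and 472 counts at 6 h and 2603 and 2722 at 24 h, which is a log2 fold change of 2.51. A match is a description of letters and not a measured binding site. The promoter of CDK4 and, to compare with it, an E-box promoter of CDK6 and of CDKN2C are shown 5′ to 3′ on the strand of the gene, with E-boxes in capitals. CDK4 lies at chr12:57752261-57752560 (minus strand), CDK6 at chr7:92836524-92836823 (minus strand), and CDKN2C at chr1:50969995-50970294 (plus strand).
CDK4: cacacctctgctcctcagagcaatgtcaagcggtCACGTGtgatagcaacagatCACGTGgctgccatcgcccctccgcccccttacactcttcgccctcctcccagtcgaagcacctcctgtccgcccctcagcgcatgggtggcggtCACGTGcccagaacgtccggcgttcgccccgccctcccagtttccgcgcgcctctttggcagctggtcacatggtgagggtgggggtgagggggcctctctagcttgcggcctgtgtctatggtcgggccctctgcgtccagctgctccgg
CDK6: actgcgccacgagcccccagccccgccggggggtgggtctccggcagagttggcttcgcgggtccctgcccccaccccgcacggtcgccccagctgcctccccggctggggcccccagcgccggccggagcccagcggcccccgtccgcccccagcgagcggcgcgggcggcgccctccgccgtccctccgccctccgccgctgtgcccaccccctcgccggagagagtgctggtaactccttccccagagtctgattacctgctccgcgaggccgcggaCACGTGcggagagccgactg
CDKN2C: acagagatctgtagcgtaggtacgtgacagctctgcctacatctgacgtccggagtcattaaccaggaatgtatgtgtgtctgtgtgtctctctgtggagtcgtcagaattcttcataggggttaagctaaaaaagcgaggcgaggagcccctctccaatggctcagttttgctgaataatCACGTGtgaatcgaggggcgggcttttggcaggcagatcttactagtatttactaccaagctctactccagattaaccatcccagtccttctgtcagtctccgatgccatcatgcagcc

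The E2F motif was searched as TTTCCCGC, TTTCGCGC, TTTGCCGC, or TTTGGCGC, and the cell cycle homology element, which marks many genes of G2 and mitosis, as TTTGAA. They occur in 3.31% and 15.2% of all promoters of the table. These letters are in 0 of the 13 windows, none of which is from CCND1 or CCNE2. The search left out chromosome 8, where CCNE2, the gene that fell most, lies. That says nothing about other forms of the motifs, about sites elsewhere, or about these 2 genes. The GC box GGGCGG, found in 45.0% of all promoters, occurs in at least 1 promoter of all 8 matched genes. CCNE1 has 7 copies of it and the highest GC content of the 13, 81.0%.

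CDKN1A and CDKN1B encode p21 and p27. CDKN1A (ENSG00000124762), a well-known target of p53 on chromosome 6 from 36644305 to 36655116, had 4552 and 4502 normalized counts at 6 h and 3153 and 3134 at 24 h. Libraries of 1 time differed by 1.10% at most, and the times did not overlap. The log2 fold change of -0.53 (SE 0.0699, adjusted P = 2.71e-07 by edgeR) is close to the cutoff, and with upper quartile scaling it was -0.496 and no longer passed. CDKN1B (ENSG00000111276), on chromosome 12 from 12867992 to 12875305, had 3288 and 2880.1 normalized counts at 6 h and 2717 and 2489 at 24 h. The change was -0.24 on the log2 scale (SE 0.0763, adjusted P = 0.00677 by edgeR), with a 95% interval from -0.40 to -0.09 that does not reach the cutoff. Without 24 h replicate 2 or 6 h replicate 1 it was -0.18 and -0.15, with adjusted P = 0.107 and 0.147 by edgeR, so that 7 of the 10 genes were then under 0.05. The fold change of CDKN1A lay below that of CDKN1B by a log2 difference of -0.28, with a 95% interval from -0.48 to -0.08. CDKN1C, which encodes p57, the third member of the family, moved the other way. It had 325 and 362 counts at 6 h and 946 and 1059 at 24 h, which is a log2 fold change of 1.50 (SE 0.0903, adjusted P = 5.90e-14 by edgeR).

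CDKN2B and CDKN2C encode p15 and p18, which bind CDK4 and CDK6. CDKN2B (ENSG00000147883), on chromosome 9 from 22002902 to 22009362, had 2951 and 2873 normalized counts at 6 h and 1525 and 1444 at 24 h. The mean fell from 2912 ± 55.2 (SD, n = 2) to 1485 ± 57.4, a log2 fold change of -0.97 (SE 0.0710, adjusted P = 3.34e-12 by edgeR). The whole span of CDKN2B lies inside another entry of the table, which had between 12 and 26 counts. CDKN2C (ENSG00000123080), on chromosome 1 from 51426417 to 51440305, had 4204 and 4188 normalized counts at 6 h and 2403 and 2195 at 24 h. The change was -0.87 on the log2 scale (SE 0.0724, adjusted P = 4.98e-11 by edgeR). In GENCODE, 20.4% of the CDKN2C exon bases are shared with a non-coding gene on the opposite strand that is not in the table. Both genes fell without overlap of the times, and their changes differed by -0.10, with a 95% interval from -0.30 to 0.09 that includes 0. The other INK4 genes were lower too. CDKN2A, which gives rise to both p16 and ARF, had 14185 and 16477 counts at 6 h and 10956 and 10943 at 24 h, which is a log2 fold change of -0.53 that was -0.4999 and no longer passed with upper quartile scaling. CDKN2D, which encodes p19, had 367 and 411 counts at 6 h and 171 and 163 at 24 h, which is a log2 fold change of -1.26.

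Levels of different genes were compared per kilobase, as reads per kilobase of transcript scaled to the same depth (normalized RPKM) with the length of the MANE Select transcript, the transcript that RefSeq and Ensembl agreed on as representative of a gene. At 6 h CDKN2C was the highest of the 10 genes with 161 ± 0.432 (SD, n = 2), followed by CDKN1A with 81.8 ± 0.637, CDK4 with 51.6 ± 1.69, and CDKN1B with 48.9 ± 4.58. CDK4 and CDKN1B overlapped at that time, since CDK4 had 52.8 and 50.4 and CDKN1B 52.1 and 45.7. At 24 h CDKN2C had 88.3 ± 5.64 and CDK4 82.9 ± 2.45, and these overlapped, with 92.3 and 84.4 for CDKN2C against 84.6 and 81.1 for CDK4. CDKN1A followed with 56.8 ± 0.240 and CDKN1B with 41.3 ± 2.55. The next genes at 24 h were CCND1 with 18.9 ± 0.0565, CCND3 with 15.9 ± 0.209, and CDKN2B with 14.7 ± 0.570, of which none overlapped. At 6 h CDKN2B with 28.9 ± 0.547 was above CCND3 with 15.3 ± 0.701, and CCND1 with 11.4 ± 0.428 was below it. CDK6 at 24 h had 2.03 ± 0.153, CCNE1 0.839 ± 0.137, and CCNE2 0.690 ± 0.0115.

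**Figure D3:**
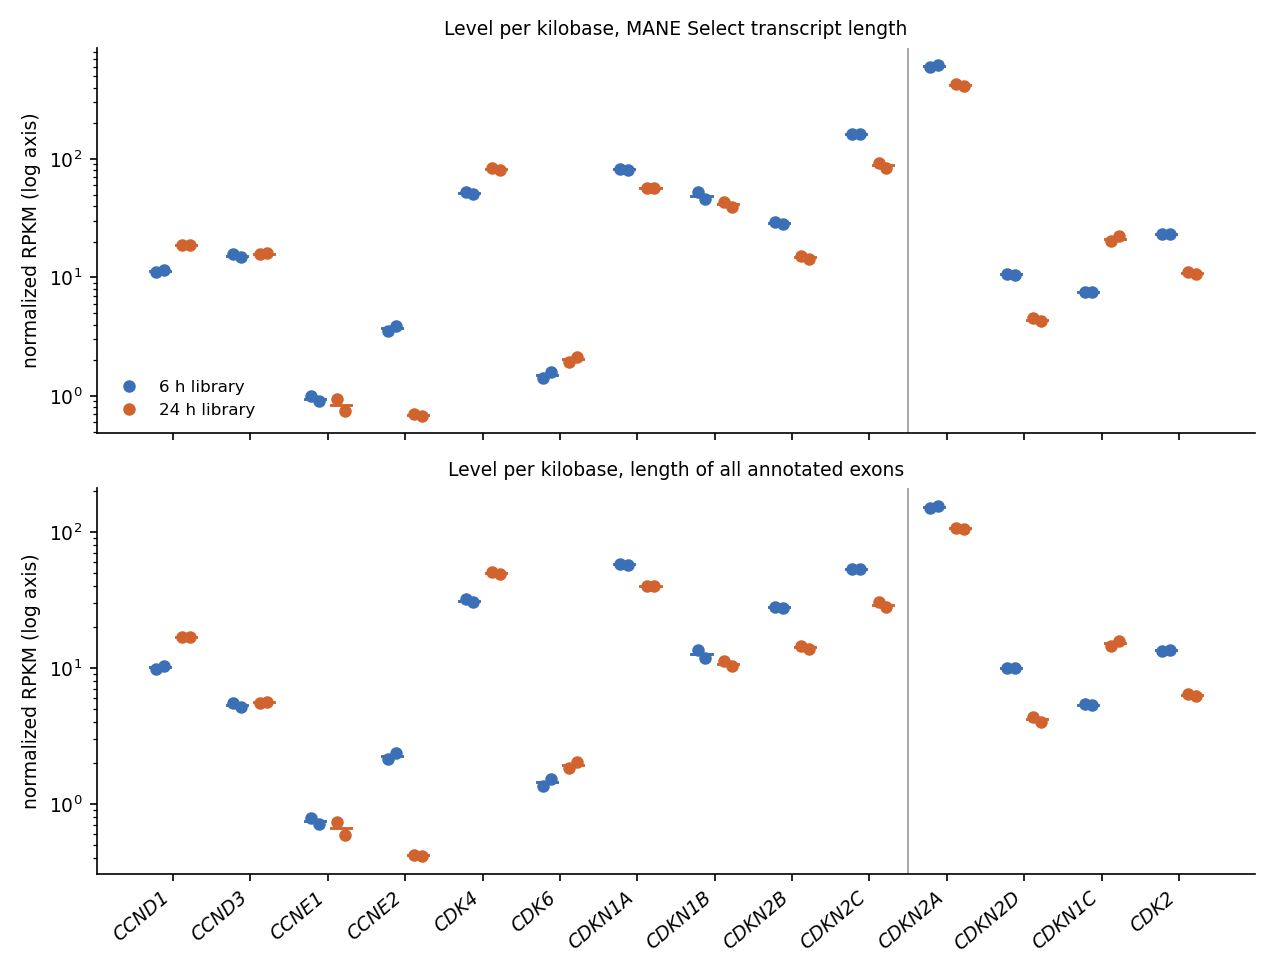
Level per kilobase (normalized RPKM, log axis) in each library at 6 h (blue) and 24 h (orange), with a bar at the mean, by the MANE Select transcript length (top) and by the length of all annotated exons (bottom), with CDKN2A, CDKN2D, CDKN1C, and CDK2 right of the line. CDKN2C leads the 10 genes at 6 h in the top panel with 161 and CDKN1A in the bottom panel with 57.8, so the order of the upper genes depends on the length used.

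The order depends on the length taken, because several of these genes have long alternative transcripts. With the length of all annotated exons, CDKN1A was highest at 6 h with 57.8 ± 0.450 RPKM, above CDKN2C with 53.2 ± 0.142, and at 24 h CDK4 was highest with 49.9 ± 1.48. CDK6 and both E-type cyclins were the 3 lowest at both times with either length. CDKN2A, which is not among the 10, was above all of them with either length, with 608 ± 13.7 RPKM at 6 h and 422 ± 7.36 at 24 h by the MANE Select transcript.

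Ratios inside a library compare the roles without any scaling between libraries. CDKN2B and CDKN2C together had 3.52 and 3.64 times the level per kilobase of CDK4 and CDK6 together at 6 h, and 1.24 and 1.19 times at 24 h. The ratio at 24 h was 0.339 of that at 6 h. By the length of all exons it went from 2.49 ± 0.0482 (SD, n = 2) to 0.835 ± 0.0250. With CDKN2A and CDKN2D counted in, the ratio of INK4 genes to these kinases was 14.7 and 15.7 at 6 h and 6.23 and 6.24 at 24 h. CCND1 and CCND3 together had 0.199 and 0.208 of the level of CDKN1A and CDKN1B together at 6 h and 0.347 and 0.363 at 24 h. The times did not overlap in any of these 3 ratios. The last of them leaves out CDKN1C, which rose from a mean of 7.53 RPKM at 6 h to 21.3 at 24 h. CCNE1 and CCNE2 together had 0.195 and 0.204 of the level of their kinase CDK2 at 6 h and 0.146 and 0.133 at 24 h. An exact two-sided permutation test of 2 against 2 libraries cannot go below P = 0.333, so these ratios are descriptions.

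**Figure D4:**
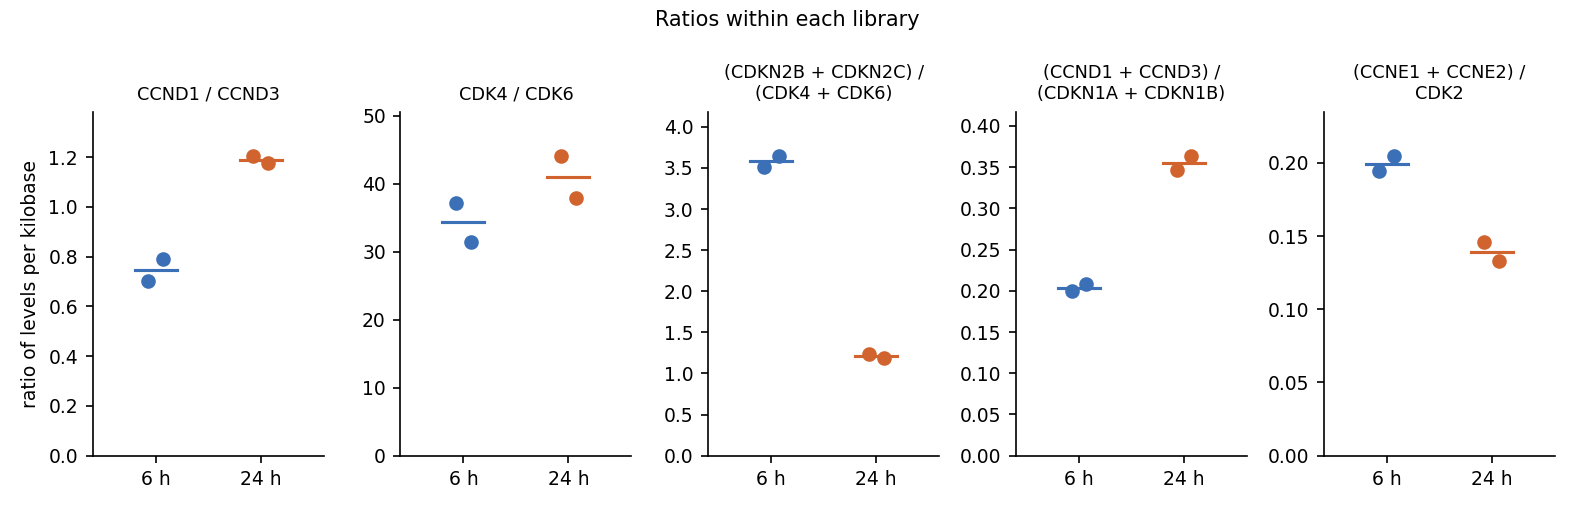
Ratios of levels per kilobase (MANE Select transcript length, linear axes from 0) inside each library at 6 h (blue) and 24 h (orange), with a bar at the mean. The ratio of CDKN2B and CDKN2C to CDK4 and CDK6 falls from 3.58 to 1.21, that of CCND1 to CCND3 goes from 0.746 to 1.19, and the points for CDK4 to CDK6 lie close together, from 31.5 to 37.2 at 6 h and from 38.0 to 44.1 at 24 h.

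The remaining cyclins gave 3 higher and 8 lower at 24 h of 22 tested. Among all genes tested, 17.4% were higher and 17.7% lower, shares that stand beside the counts of every list below. CCNA2, CCNB1, and CCNB2 fell further than any of the 10 genes. CCNA2, the cyclin of S phase and G2, had a log2 fold change of -4.48, CCNB1 and CCNB2, which drive mitosis, -4.20 and -4.10, and CCNF -2.58. CCNA1 had -1.44, CCNL1 -0.71, CCNC, a subunit of the Mediator complex, -0.64, and CCNB3 -0.62, a call that DESeq2 did not make. CCNJL rose with a log2 fold change of 1.05, CCNJ with 0.85, and CCNYL1 with 0.75. The median of these cyclins was -0.25.

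Of the other CDK genes, 1 of 22 tested was higher and 5 were lower, with a median of -0.18. The lower share is near the 17.7% of all genes. CDK10 made 2 higher without 6 h replicate 2, at 0.50, and CDK9 and CDK15 made 7 lower when libraries were scaled by size alone. CDK1, the mitotic kinase, had 7021 and 8083 counts at 6 h and 336 and 368 at 24 h, which is a log2 fold change of -4.47. CDK2, the partner of the E-type cyclins, had 1263 and 1433 counts at 6 h and 658 and 646 at 24 h, which is a log2 fold change of -1.09 (SE 0.0782, adjusted P = 2.22e-12 by edgeR). CDK14 had -1.06, CDK7, the kinase that activates other CDKs, -0.58, and CDK5 -0.55. CDK5 was -0.46 and -0.39 without 24 h replicate 2 or 6 h replicate 2 and then did not pass. CDK18 was the gene that rose, with 0.77. CDK4 was thus higher at 24 h while CDK1 and CDK2 were lower.

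The 4 other genes of CDK inhibitors were all past the cutoffs, with CDKN3, a phosphatase that acts on CDKs, lowest at -3.90. Of 13 genes of the retinoblastoma family and E2F factors, 0 were higher and 5 lower by edgeR. DESeq2 also called 0 higher, while 3 were higher at an unadjusted P under 0.05. E2F5, at 0.45, passed as higher without 24 h replicate 2, at 0.52. E2F8, E2F2, E2F1, and E2F7 had log2 fold changes of -3.95, -3.34, -3.30, and -1.56, and RBL1, which encodes p107, -1.49. RBL1 is also the symbol of a second row, which had at most 1 count in every library. RB1 itself had -0.26 and did not pass. Of 18 replication genes that E2F factors are known to drive, 18 were lower, with a median of -2.01, from CDC45 at -4.57 to MCM6 at -0.51. MCM6 did not pass with upper quartile scaling or without 24 h replicate 2 or 6 h replicate 1, at -0.48, -0.44, and -0.46.

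Of 11 genes that act on CDKs by adding or removing phosphate or by binding, 7 were lower and 0 higher by edgeR. DESeq2 and an unadjusted P under 0.05 also gave 0 higher. CDK7 was also counted among the other CDKs, and CCNH among the other cyclins. CDC25C, the phosphatase that activates CDK1, was lowest at -5.79, and CDK7 least, with -0.58. CKS1B, a small subunit that CDK complexes and the p27 ligase share, had -2.27, but it shares its symbol with a second row of the table, on chromosome 5, so its counts are uncertain. Of 16 ubiquitin ligase parts and related enzymes that act on the 10 proteins, 3 were lower and 0 higher by edgeR, with 0 higher in DESeq2 and 5 at an unadjusted P under 0.05. DTL, which targets p21, had -3.18, and SKP2, which targets p27, had -0.55 and did not pass without 24 h replicate 2, at -0.41.

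The counts for pathways that regulate the 10 genes stand beside 17.4% higher and 17.7% lower among all genes. Of 20 p53 targets other than CDKN1A, 4 were higher and 4 lower, which is near those shares, from DDB2 at -1.14 to GDF15 at 1.49, with a median of 0.09. Of 16 genes that report ERK output, 7 were higher and 1 lower, from PHLDA1 at -0.71 to MYC at 2.51, with a median of 0.38. Without 24 h replicate 1 or 6 h replicate 2, DUSP6 and ETV4 also passed and 3 were lower. SPRY1, SPRY2, and DUSP4 are genes that the study itself picked from these libraries as induced, so their direction is not independent evidence. Of 11 FOXO targets tested, the class to which CDKN1B belongs, 1 was higher and 5 lower, from FBXO32 at -1.16 to KLF6 at 0.86. IRS2 was also higher without 24 h replicate 1 or 6 h replicate 2, at 0.52 and 0.58. Of 12 genes that respond to TGF-β, as CDKN2B does in many epithelial cells, 6 were higher and 1 lower, from ID3 at -1.31 to LTBP2 at 1.56.

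**Figure D5:**
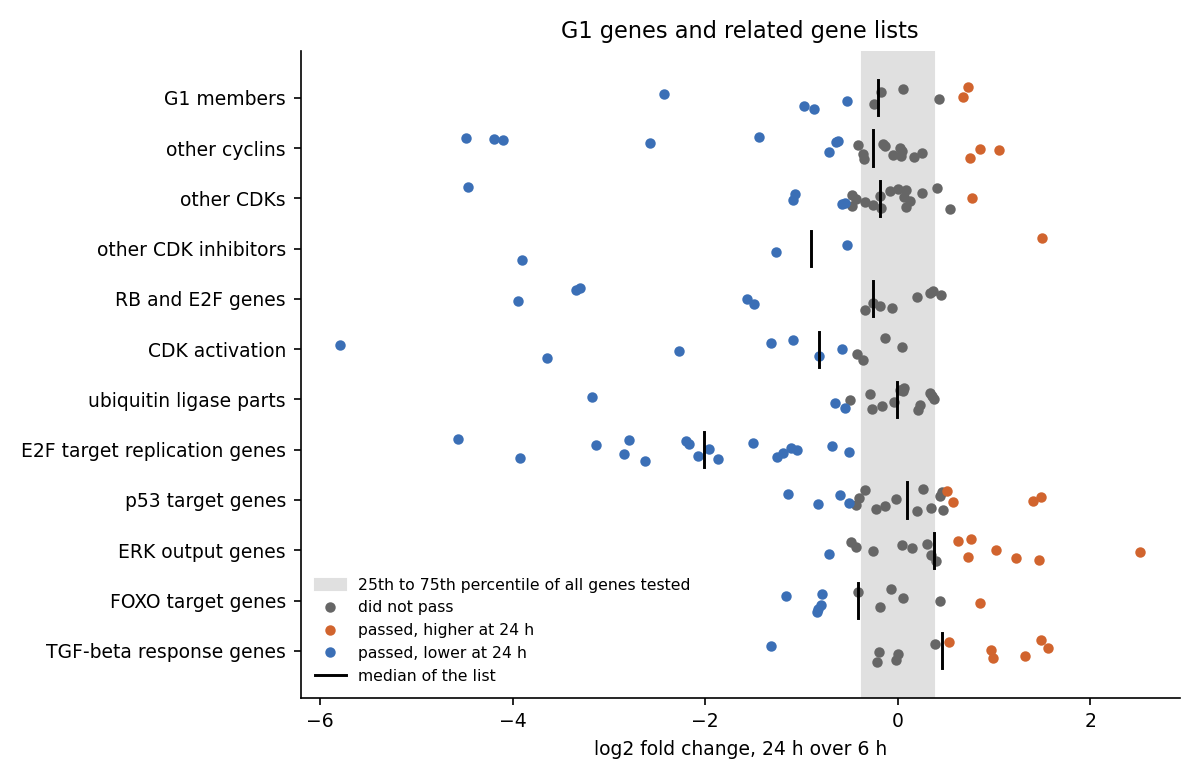
Log2 fold change at 24 h over 6 h of each tested gene of the 10 G1 genes and of 11 related lists, with a black line at the median of each list and a band from the 25th to the 75th percentile of all genes tested. The G1 genes spread from -2.43 to 0.73 around a median of -0.21, and the replication genes all lie below the band, from -4.57 to -0.51.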

How the data were processed

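RNA from TPC1 cells was sequenced as 2 libraries at each of 2 times of BLU6864. Reads were aligned to hg19 with STAR (version 2.3 in the submitters' processing notes) and then put through DESeq2. The authors deposited raw counts per gene and a normalized signal, the count divided by a DESeq2 size factor. The deposited signal and the deposited fold changes and P values of the authors' comparison were not used. Reads are 50 bases single-end in the labels and paired-end in the methods. The counting program, its strand setting, and its annotation are not given in the sources used here.

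The test was edgeR 4.0.16 (R 4.3.3) on the raw counts, with filterByExpr, TMM normalization, and the quasi-likelihood test with time as the single factor. It kept 12876 genes with 99.97% of the counts. P was adjusted over all of them by Benjamini and Hochberg. Standard errors follow from the fold change and the F statistic. The biological coefficient of variation was 0.0521. The procedure was first run on simulated counts with the same spread for every gene and few changed genes. In these data many genes changed, so the simulation does not measure the error rate here. Counting error is the inverse square root of the mean count and covers counting only. Lengths and exon overlaps came from GENCODE 44 on hg38, matched by Ensembl identifier, and promoters from RefSeq. Positions of genes follow the table on hg19, and builds were not mixed. Plots used matplotlib 3.10.9 in Python 3.11.15.

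The 10 genes and the 11 gene lists were chosen with earlier results of these data known. Of the lists of other cyclins, other CDKs, other CDK inhibitors, and RB and E2F genes, the text names the genes that passed, and of the other lists the highest and lowest gene that passed. Genes named beyond this were chosen after their values were seen, namely RB1, SKP2, CKS1B, CCND2, SPRY1, SPRY2, DUSP4, DUSP6, ETV4, IRS2, E2F5, CDK9, CDK10, and CDK15. For symbols on 2 rows, CKS1B and RBL1, the row with the identifier of GENCODE was taken. The same-numbered libraries of the times share only a number, since no label says what it marks. Alternatives were DESeq2 1.42.0, a block for the replicate number, scaling by upper quartile or by library size alone, a minimum of 10 counts per library or no filter, other cutoffs, and leaving out each library. With 2 libraries at a time, outliers were not tested. Unmapped columns of sample values numbered 0.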

Additional observations from a re-analysis of the deposited data

How the results depend on the processing

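The numbers of the 10 genes higher and lower at 24 h and of all genes higher and lower stayed within 1.5 times under another test, scaling, or filter and with each library left out. With an adjusted P under 0.05 and no cutoff on the fold change, 4247 of all genes were higher and 4196 lower. With an adjusted P under 0.05 and a log2 fold change over 1, 923 were higher and 1094 lower, and of the 10 genes 0 were higher and 1, CCNE2, lower. At an unadjusted P under 0.05 in edgeR, 3 of the 10 were higher and 5 lower, and the share of all genes at this cutoff was not counted. At an adjusted P under 0.05 with no fold cutoff, 3 were higher and 5 lower, beside 65.6% of all genes in either direction. DESeq2 with the cutoffs of the main test gave 2 higher and 4 lower. The counts under other cutoffs come from the same edgeR fit. No direction of the 10 genes reversed. In the fits without 1 library, where the lone library of a time is assumed to vary like the others, CCND1 stayed between 0.70 and 0.77, CDK4 between 0.65 and 0.72, CCNE2 between -2.49 and -2.35, CDKN2B between -1.01 and -0.93, and CDKN2C between -0.93 and -0.80 in log2 fold change. CCNE1 ranged from -0.34 to -0.01 and CDKN1B from -0.34 to -0.15. Of 120 checks of the 10 fold changes, 110 kept their call, and 31 counts in the gene lists moved while 233 did not. Library size alone and upper quartile scaling moved the median of all genes to -0.04 and 0.03. The deviations of same-numbered libraries correlated at 0.0844 across genes, and with the replicate number as a block 2 of the 10 genes were higher and 4 lower, as without it. The 24 h counts of CCNE1 and CCNE2, at most 49, set the limit of their precision.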
